A study of Homo sapiens with 15 samples.

Results

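The mitosis and G2/M genes are a group of 33 genes whose products carry a cell from late G2 through division. They were listed by name for what their products do. The rule uses no measured value, but earlier results of these data were known when the list was made. All 33 were found by symbol among the 59608 genes of the table, and 31 of them passed the filter on low values and were tested. The group holds CDK1 with its cyclins CCNB1, CCNB2 and CCNA2 and its phosphatase CDC25C. It holds the mitotic kinases AURKA, AURKB, PLK1, TTK, BUB1 and BUB1B with their partners TPX2 and BIRC5. CDC20 and UBE2C belong to the protein degradation that ends mitosis, and CENPA, CENPE, CENPF, NDC80 and NUF2 to the kinetochore and centromere. KIF11, KIF2C, NUSAP1, HMMR and DLGAP5 act on the spindle, KIF20A, KIF23, PRC1, RACGAP1, ECT2 and ANLN on the midzone and cytokinesis, and TOP2A and MKI67 on chromosome structure.

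RNA came from MDA-MB-231 cells, a human triple-negative breast cancer line, grown in 2D and treated for 6 h. The 5 groups received ZJ-101 at 0.5, 5, 50 or 500 nM, or 0.1% DMSO as the negative control, with 3 dishes and 3 libraries a group. ZJ-101 is a compound derived from a marine natural product, and the design asks how transcript levels move with its dose before the cells change shape. The labels name no genotype or second agent that differs between the groups, and they give the DMSO content only for the negative control. The treated libraries are labelled as biological replicates and nothing says that the dishes were grown on separate days, so p-values measure the spread between these dishes. Each library held between 12415519 and 15284762 reads on genes. VIM (13433 to 18413 normalized counts), CD44 and EGFR, which this mesenchymal-like line expresses, were abundant in every library, ESR1 lay between 0 and 4.30 and PGR between 5.37 and 17.3, and the leukocyte gene PTPRC between 0 and 3.53. Some genes of other tumour or cell types were detected in every library, with ERBB2 at 1136 to 1328 normalized counts, the epithelial genes EPCAM and CDH1 at 266 to 320.2 and 107 to 206, the endothelial gene PECAM1 at 201 to 321 and the fibroblast gene COL1A1 at 165 to 224, and their part in any result was not tested. A normalized count is a gene's read count divided by its library's DESeq2 size factor.

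Entry into mitosis is driven by CDK1 bound to cyclin B, which WEE1-type kinases hold inactive until CDC25 phosphatases remove the inhibitory phosphates. PLK1 and the Aurora kinases then direct spindle assembly, and the spindle checkpoint holds the anaphase-promoting complex (APC/C) back until the kinetochores are attached. The genes of this programme are transcribed mainly in G2 and M, under the DREAM and MMB complexes with FOXM1, which act through the cell cycle genes homology region (CHR), while NF-Y binds CCAAT boxes in the same promoters. S phase genes are instead controlled largely through E2F sites. Their transcript levels therefore track the share of dividing cells, and in bulk RNA fewer cells in G2 and M cannot be told apart from less of each RNA per cell.

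The promoters share letters that the choice of genes did not use. RefSeq promoters (GRCh38.p14, 250 bases before to 50 bases after a start) were at hand for 27 of the 33 genes. The CHR letters, TTTGAA or TTCGAA on either strand, stood in 20 of the 27 (74.1%), against 16.6% of all 27305 promoters of that length. The NF-Y letters CCAAT, on either strand, also stood in 20 of the 27 (74.1%), against 35.7% of all promoters. Both stood in 16 of the 27 (59.3%), against 6.58% of all. At least 2 CCAAT boxes were present in 13 (48.1%), against 11.3%. The CHR letters also stood in 53.3% of the promoters of other genes of mitotic entry (8 of 15), 53.1% of those of other spindle and cytokinesis genes (17 of 32), 50% of other kinetochore and centromere genes (15 of 30), 50% of condensin and cohesin genes (8 of 16) and 25% of other APC/C and checkpoint genes (6 of 24). In the promoters of genes that control the programme they stood in 16.7% (3 of 18), near the share of all promoters. CCAAT stood in 37.5% to 70% over these 6 lists and in 54.3% of the S phase promoters. Of the S phase promoters 2 of 35 (5.71%) held the CHR letters and 10 of 35 (28.6%) an E2F-type site (TTTCGCGC or TTTGGCGC, both strands), which 2 of the 27 mitotic promoters (7.41%) and 1.18% of all promoters held. No motif contains another, and matches were searched for separately. A match describes the letters in this window and was not tested as a site of binding. The search took 1 RefSeq start per gene and only these exact letters. A gene without a match could carry other forms of an element, or a match near another start.

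Stretches from 150 bases before the RefSeq start to the first annotated exon base are shown for CDC20 and CCNB2, which carry both kinds of letters, and for ECT2 and CDC25C, which changed below. Each is written 5′ to 3′ on the gene's strand, with the CHR and CCAAT letters in capitals. CDC20 was read from chr1:43358831-43358980 (plus strand), CCNB2 from chr15:59104996-59105125 (plus strand), ECT2 from chr3:172750576-172750681 (plus strand) and CDC25C from chr5:138338356-138338505 (minus strand), where these letters do not occur.
CDC20: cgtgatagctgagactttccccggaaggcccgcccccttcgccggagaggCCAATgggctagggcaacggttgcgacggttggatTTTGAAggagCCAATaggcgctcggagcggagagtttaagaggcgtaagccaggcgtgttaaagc
CCNB2: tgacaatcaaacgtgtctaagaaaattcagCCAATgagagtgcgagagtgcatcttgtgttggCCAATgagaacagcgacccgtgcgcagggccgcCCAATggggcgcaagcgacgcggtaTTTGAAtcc
ECT2: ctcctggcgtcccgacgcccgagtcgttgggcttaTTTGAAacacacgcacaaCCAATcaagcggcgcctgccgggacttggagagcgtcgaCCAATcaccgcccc
CDC25C: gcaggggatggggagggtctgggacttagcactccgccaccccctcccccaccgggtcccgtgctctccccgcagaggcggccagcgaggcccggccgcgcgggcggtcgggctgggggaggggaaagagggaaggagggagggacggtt

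In the stretch shown of CCNB2 the CHR letters began 29 bases before the start, and CCAAT boxes began 120, 87 and 54 bases before it. In its stretch CDC20 had CHR letters 65 bases before the start between CCAAT boxes at 100 and 55 bases, and ECT2 in the stretch shown had CHR letters at 115, and CCAAT boxes at 97 and 58 bases. The full windows of these 3 genes held further matches outside the stretches. In PLK1 the CHR letters began 29 bases and the CCAAT box 73 bases before the start. CCNB1 and CCNA2 had CCAAT boxes but neither form of the CHR letters in this window. Other forms of the letters were not searched for in these genes or in CDC25C.

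One library stood apart most among these genes and touches the tests below. Replicate 2 of 0.5 nM was the highest library of its group for 13 of the 31 tested genes, whose canonical transcripts measure 777 to 2862 bases, and the lowest for 16 genes of 2748 to 12716 bases. MKI67, the longest of them, was 0.80 lower there on the log2 scale than the mean of replicates 1 and 3, and CENPF was 0.49 lower. CDK1, with a transcript of 1889 bases, was 0.27 higher. The SD over the 31 genes around DMSO was 0.184 in this library and 0.0284 to 0.161 in the others. Over all tested genes it was the highest of its group for 40.4% and the lowest for 39.5%, and its count profile differed from those of its partners by a chi-square of 11.1 and 16.5 per degree of freedom, where other pairs of replicates gave 2.04 to 6.27. The part of transcript length in any result was not tested. Calls that change without this library, and the counts at 0.5 nM, are given with and without it.

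**Figure D1:**
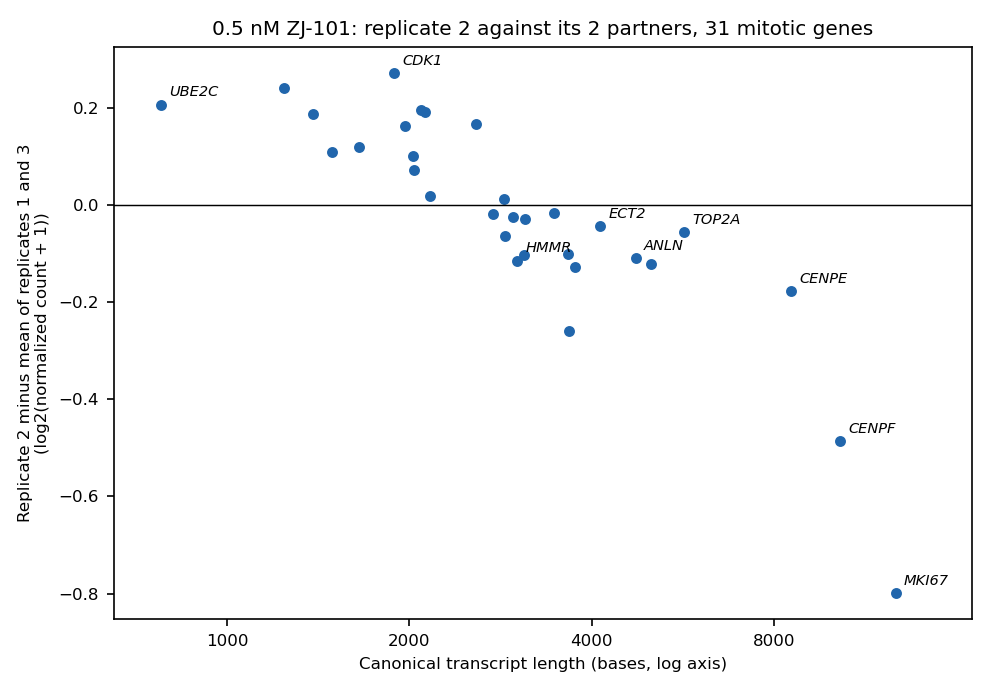
Difference between replicate 2 and the mean of replicates 1 and 3 of the 0.5 nM group on the log2(normalized count + 1) scale (y axis) against canonical transcript length in bases (log x axis), 1 point for each of the 31 tested mitotic genes. The highest point is CDK1 at 0.27 and the lowest are CENPF at -0.49 and MKI67 at -0.80, the longest transcripts. The fall with length is uneven, with UBE2C, the shortest, at 0.21, BUB1B (3669 bases) at -0.26 and CENPE (8541 bases) at -0.18.

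Levels differed widely among the members. Per kilobase of canonical transcript, UBE2C, the E2 enzyme of the APC/C, led with a mean of 3690 normalized counts over the 15 libraries, and its libraries (3440 to 4373) lay above those of every other member. CDC20, an activator of the APC/C, followed at 2681, then CCNB1 at 2343, TPX2, which activates AURKA on the spindle, at 2208, and AURKA at 2009. The ranges of CDC20, CCNB1 and TPX2 each overlap the next in that order, and TPX2 lay above AURKA without overlap. TOP2A, the topoisomerase that untangles sister chromatids, stood at 1610, CDK1 at 1453 and MKI67, a coat protein of mitotic chromosomes, at 529.7. At the low end came CENPE at 231, CDC25C at 180 and HMMR at 76.3, where CDC25C overlapped CENPE and HMMR overlapped neither of its neighbours in the order.

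NUSAP1 and PRC1 were nearly silent in this table and were not tested. NUSAP1, a microtubule-bundling protein of the spindle, had 1.07 to 12.1 normalized counts per library and PRC1, which cross-links the antiparallel microtubules of the midzone, 4.06 to 15.2. In GENCODE release 44, 86.8% of the exon bases of NUSAP1 also lie in exons of other genes, 81.4% in 1 unnamed protein-coding gene on the same strand. For PRC1 the shares were 61.9% and 57.6%. For every other member the share was at most 12.8%, the value for PLK1. Counting that sets aside reads shared by 2 genes would lower such a gene, and whether it did so here was not tested.

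After 6 h with ZJ-101 the mitotic programme stayed close to its DMSO level at every dose. The median log2 fold change of the 31 tested genes was -0.021 at 0.5 nM, -0.039 at 5 nM, -0.072 at 50 nM and -0.037 at 500 nM, beside medians over all 13561 tested genes of -0.0069, -0.00028, -0.0023 and 0.0027. Leaving out 1 library gave members' medians at 0.5 nM from -0.0352 (without DMSO replicate 1) to -0.00925 (without 0.5 nM replicate 2), at 5 nM from -0.0524 to -0.0185 (without 5 nM replicates 1 and 3), at 50 nM from -0.0831 to -0.0462 (without 50 nM replicates 1 and 2) and at 500 nM from -0.0498 to -0.0351 (without 500 nM replicates 3 and 2). In limma with Benjamini-Hochberg adjustment no member passed an adjusted p of 0.05 at 0.5 nM, where 1.17% of all genes did (0.922% lower and 0.251% higher). None passed at 5 nM either, against 2.18% of all genes (1.71% lower and 0.465% higher). At an unadjusted p of 0.05, 2 of the 31 members were lower at 0.5 nM, against 8.63% of all genes. At 5 nM 3 of the 31 were, against 7.94%, with 0 higher at either dose, against 6.10% and 4.96%. edgeR also gave 0 at both doses, and DESeq2 gave 0 at 0.5 nM and 1, ECT2, at 5 nM. At 50 nM 1 member, TTK, was lower and 0 higher, against 6.00% of all genes (3.71% lower and 2.29% higher). At 500 nM 3 members fell, CDC25C, ECT2 and TTK, and 0 rose, against 17.8% of all genes (10.1% lower and 7.69% higher). At an unadjusted p of 0.05, 9 of the 31 members were lower at 50 nM, against 9.51% of all genes. At 500 nM 8 of the 31 were, against 15.5%. The members' share was the larger at both doses. At 50 and 500 nM 0 members were higher at that threshold, against 7.91% and 13.8%, and 0 by edgeR or DESeq2. All 4 comparisons share the same DMSO libraries.

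**Figure D2:**
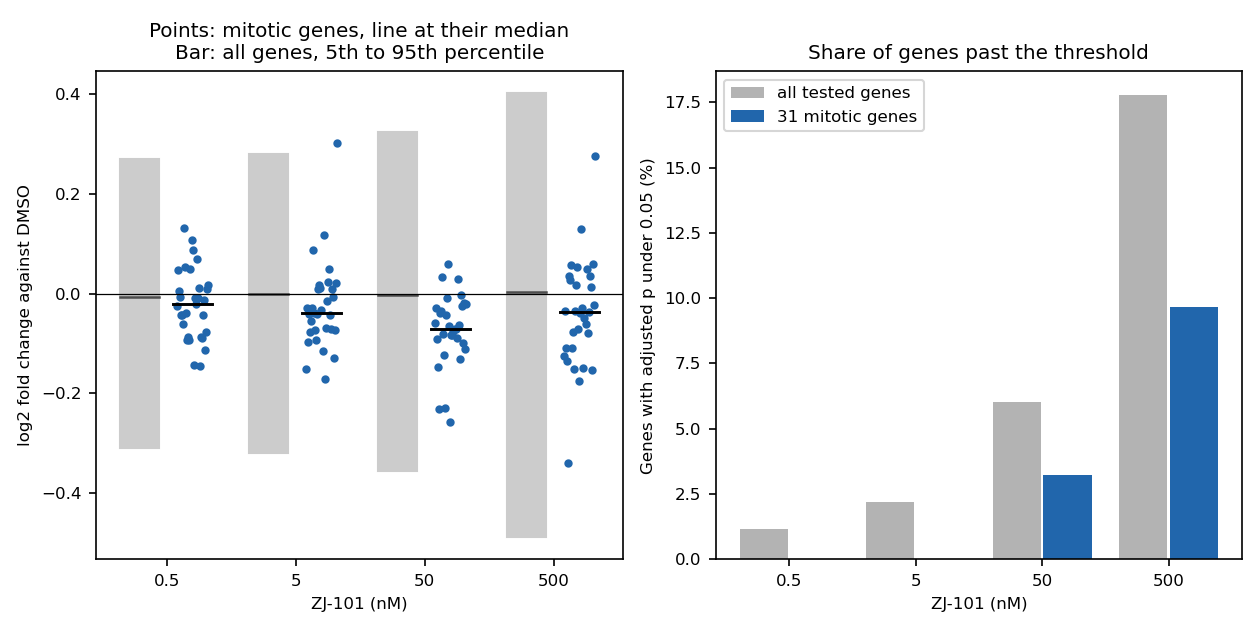
Left, log2 fold change against DMSO by ZJ-101 dose, with 1 point for each of the 31 mitotic genes, a black line at their median, and a grey bar from the 5th to the 95th percentile of all 13561 tested genes with its median line. Right, the share of genes with an adjusted p under 0.05, which was 17.8% of all genes at 500 nM and 3 of the 31 mitotic genes.

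The estimates were precise enough to bound what was missed. Their 95% intervals reached a median of 0.11 to either side on the log2 scale. At 500 nM the interval lay within 0.5 of zero in both directions for 29 of the 31 genes, all except CDC25C, whose interval reached -0.52, and MKI67, whose interval reached 0.60. At 0.5 and 50 nM it did so for all 31, and at 5 nM for 30. The fold changes at 500 nM ran from -0.34 (CDC25C) to 0.28 (MKI67), and 29 of 31 were under 0.2 in size. Over all tested genes, which include weaker ones, the 5th and 95th percentiles at that dose were -0.49 and 0.40.

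**Figure D3:**
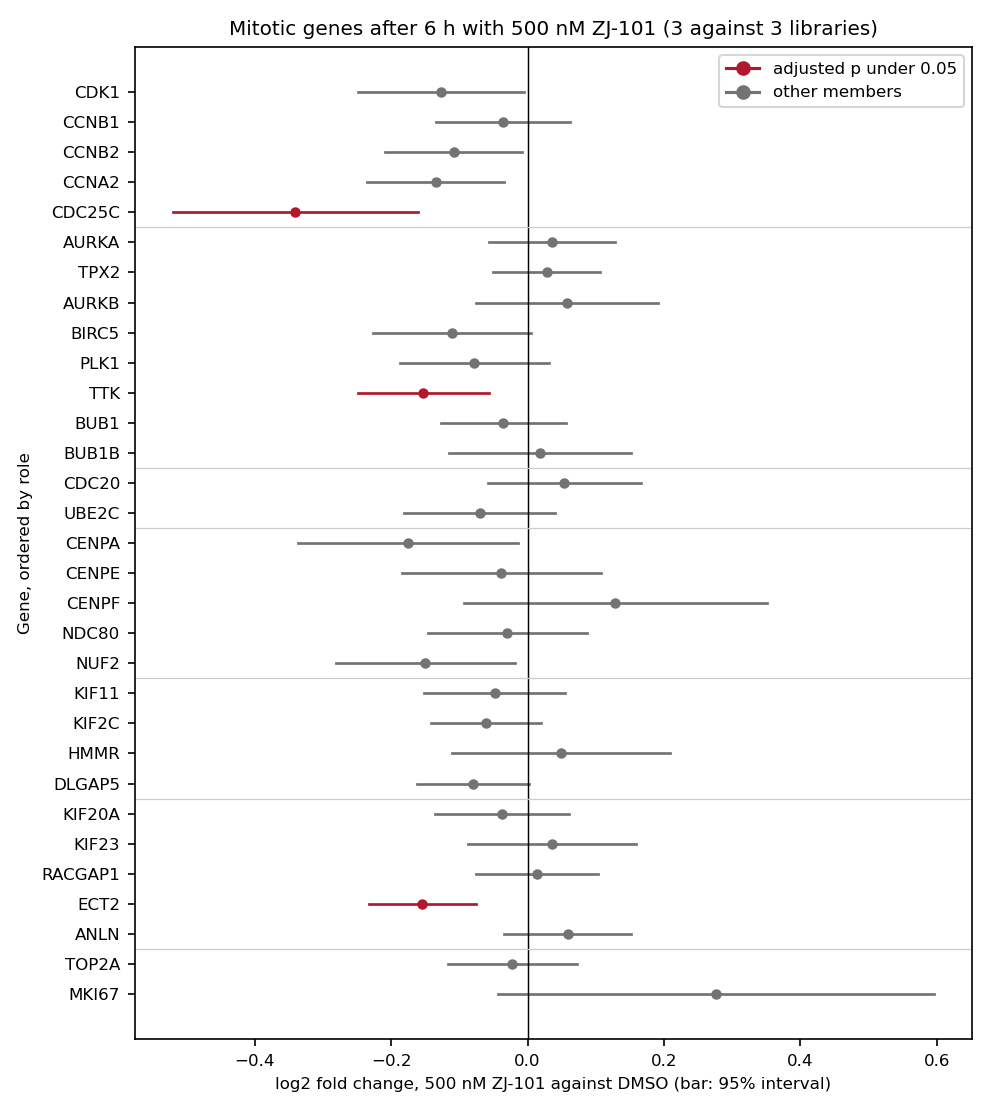
Log2 fold change of each of the 31 tested mitotic genes at 500 nM ZJ-101 against DMSO (x axis, points with 95% intervals), ordered by role. CDC25C, TTK and ECT2, in red, passed an adjusted p of 0.05, and the intervals of most other genes include zero.

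CDC25C, the phosphatase that activates CDK1 at mitotic entry, had the largest change. It is a gene of chromosome 5 (138285269-138338355, minus strand, hg38, GENCODE release 44), and 8.80% of its exon bases lie under FAM53C on the other strand. Its normalized counts were 383, 429 and 428 in DMSO, 385, 439 and 381 at 0.5 nM, 420.4, 401 and 355 at 5 nM, 381, 350.4 and 324 at 50 nM, and 301, 339 and 340.03 at 500 nM. The 50 and 500 nM libraries lay below every DMSO library, and the 500 nM libraries overlapped those of 50 nM. From a DMSO mean of 413.5 ± 26.0 (SD, n = 3) the level fell to 326.5 ± 22.4 at 500 nM. The log2 fold change was -0.34 (95% interval -0.52 to -0.16, adjusted p = 0.0086 in limma). At 50 nM it was -0.23 (-0.41 to -0.053) with an adjusted p of 0.14. Without replicate 1 of 500 nM, its lowest library, the adjusted p at 500 nM was 0.053.

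TTK, the MPS1 kinase that starts spindle checkpoint signalling at unattached kinetochores, was lower at both higher doses. It lies on chromosome 6 (80003887-80042527, plus strand) and shares no exon base with another gene. DMSO libraries held 1069, 1042 and 1109.9 normalized counts, 0.5 nM libraries 1034, 994 and 990.1, 5 nM libraries 1022, 1019.7 and 976, 50 nM libraries 931, 894 and 919, and 500 nM libraries 986, 975 and 936. Every treated library lay below every DMSO library, and 50 nM was lowest without overlap with any other group. The log2 fold change was -0.23 at 50 nM (-0.33 to -0.13, adjusted p = 0.0032) and -0.15 at 500 nM (-0.25 to -0.057, adjusted p = 0.025). The 500 nM call did not survive the removal of DMSO replicate 1 or 3 or of 500 nM replicate 2 or 3, with adjusted p-values up to 0.12, or testing without the filter. The spread of TTK within groups, 0.038 on the log2 scale, was at percentile 1.6 among the 1000 genes nearest in level.

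ECT2, the exchange factor that activates RhoA for the cytokinetic furrow, fell at 500 nM. It lies on chromosome 3 (172750682-172821474, plus strand) with no exon shared with another gene. Normalized counts were 4853, 5008 and 5087 in DMSO, 4689, 4509 and 4609 at 0.5 nM, 4640.03, 4573 and 4458 at 5 nM, 4790.1, 4623 and 4532 at 50 nM, and 4475, 4489 and 4466 at 500 nM. All 12 treated libraries lay below the 3 DMSO libraries, and the 500 nM libraries lay below those of 0.5 and 50 nM and overlapped those of 5 nM. At 500 nM the log2 fold change was -0.15 (-0.23 to -0.076, adjusted p = 0.0066). At 0.5, 5 and 50 nM it was -0.11, -0.13 and -0.10, with adjusted p-values of 0.15, 0.085 and 0.14. The 500 nM call was kept in all 26 alternatives. The spread of ECT2 within groups, 0.03 on the log2 scale, was at percentile 4.1 among the 1000 genes nearest in level.

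**Figure D4:**
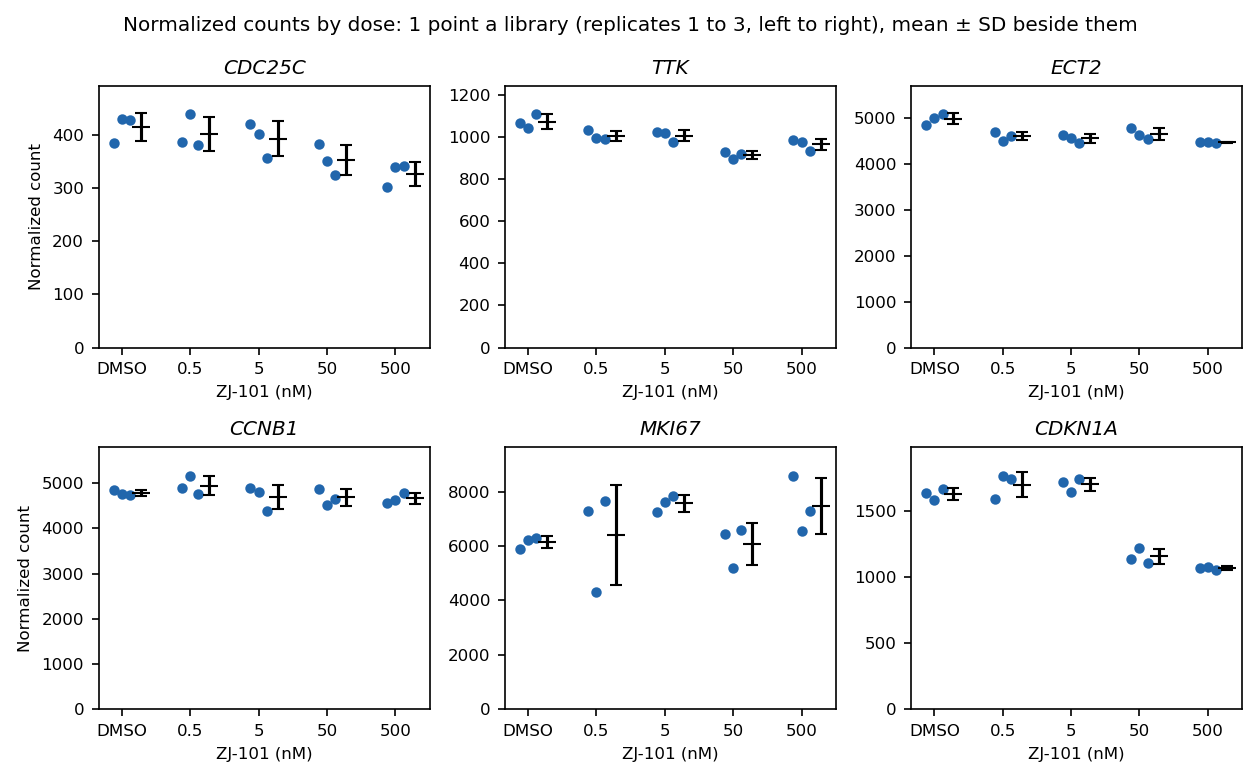
Normalized counts (y axis, from 0) of CDC25C, TTK, ECT2, CCNB1, MKI67 and CDKN1A by ZJ-101 dose, 1 point a library with the mean ± SD of 3 libraries beside them. CDC25C falls from a mean of 413.5 in DMSO to 326.5 at 500 nM, and replicate 2 of 0.5 nM stands low for MKI67 at 4293.

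The other genes of the CDK1 module had small negative differences at 500 nM. CDK1, the kinase that triggers mitosis, held 2878, 2917 and 2845 normalized counts in DMSO, 2705, 3208 and 2614 at 0.5 nM, 2677, 2588 and 2518 at 5 nM, 2858, 2738 and 2699.52 at 50 nM, and 2601, 2690.27 and 2624 at 500 nM. The 5 and 500 nM libraries lay below every DMSO library, and the highest and lowest 0.5 nM libraries enclosed the whole DMSO range. Its log2 fold change at 500 nM was -0.13 (-0.25 to -0.0049, adjusted p = 0.15), and without replicate 2 of 0.5 nM, which enters only through the shared spread, the adjusted p was 0.015. With the 2 groups alone CDK1 passed as lower at 5 nM (adjusted p = 0.017) and at 500 nM (adjusted p = 0.011). CCNB1, cyclin B1, held 4848, 4763 and 4734 in DMSO, 4899, 5170.0 and 4752 at 0.5 nM, 4886, 4802 and 4390.4 at 5 nM, 4880.4, 4521 and 4656 at 50 nM, and 4572, 4629 and 4794 at 500 nM. Its groups overlapped at every dose, with a log2 fold change of -0.036 (-0.13 to 0.063) at 500 nM. CCNA2, cyclin A2, gave -0.13 (-0.24 to -0.034, adjusted p = 0.061) and CCNB2 -0.11 (-0.21 to -0.0082, adjusted p = 0.14). CCNA2 passed the threshold with the 2 groups alone (adjusted p = 0.016) and without replicate 2 of 0.5 nM (0.036), replicate 1 of 5 nM (0.048) or replicate 1 of 50 nM (0.047).

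Among the mitotic kinases and their partners TTK alone of 8 genes passed at any dose in the main test (limma, the 5 groups in 1 fit). PLK1, which drives centrosome maturation and the release of cohesin, held 2154, 2228 and 2093 normalized counts in DMSO, 2037, 2115 and 2145 at 0.5 nM, 2041, 2089 and 2020.1 at 5 nM, 2187, 1917 and 1849.7 at 50 nM, and 2051, 2031 and 2049.9 at 500 nM. The 50 nM libraries reached into the DMSO range through replicate 1, and the 5 and 500 nM libraries lay below it. Its log2 fold change was -0.12 at 50 nM (-0.23 to -0.015, adjusted p = 0.21) and -0.078 at 500 nM (-0.19 to 0.031, adjusted p = 0.35). Without replicate 1 of 50 nM it was -0.20 at 50 nM, with an adjusted p of 0.017. AURKA, the centrosomal Aurora kinase, held 4118, 4148 and 4153 in DMSO, 3965, 4152 and 3939 at 0.5 nM, 4067, 4165 and 3739 at 5 nM, 4189.5, 3911 and 3992 at 50 nM, and 4271, 4172 and 4288 at 500 nM. Its 500 nM libraries lay above every library of the other groups except 1 at 50 nM, and the log2 fold change was 0.036 (-0.056 to 0.13).

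TPX2 held 7774, 7678 and 7862 normalized counts in DMSO, 7516, 7386 and 7436 at 0.5 nM, 7419, 7918 and 7525 at 5 nM, 7746, 7368 and 7631 at 50 nM, and 8037, 7822 and 7909.9 at 500 nM, a log2 fold change of 0.028 (-0.051 to 0.11) at the highest dose. AURKB and BIRC5 encode the kinase and the survivin subunit of the chromosomal passenger complex. At 500 nM AURKB gave 0.058 and BIRC5 -0.11 on the log2 scale, with adjusted p-values of 0.61 and 0.2. BUB1 (-0.036) and BUB1B (0.018), which sense unattached kinetochores and restrain CDC20, had adjusted p-values of 0.65 and 0.89 there.

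CDC20 and UBE2C, which send cyclin B to destruction, gave 0.054 (-0.059 to 0.17) and -0.070 (-0.18 to 0.041) at 500 nM. Neither passed at any dose. Of the 5 kinetochore and centromere genes none passed in the main test either. CENPA, the histone H3 variant that marks centromeres, was lower in each 50 and 500 nM library than in every DMSO library, from 419.9, 454 and 461 in DMSO to 396.5, 384 and 337 at 50 nM and 396.5, 385 and 399 at 500 nM. Its log2 fold change was -0.26 (-0.42 to -0.096, adjusted p = 0.056) at 50 nM and -0.18 (-0.34 to -0.014, adjusted p = 0.13) at 500 nM. At 50 nM CENPA passed as lower with a mean of at least 50 (adjusted p = 0.047) and with the replicate block (0.048). The 2 groups alone gave adjusted p-values of 0.045 at 50 nM and 0.049 at 500 nM. Leaving out replicate 2 or 3 of 0.5 nM gave 0.023 or 0.027 at 50 nM. NUF2 and NDC80 form the outer kinetochore complex that grips microtubules. NUF2 gave -0.15 (adjusted p = 0.11) and NDC80 -0.030 (adjusted p = 0.78) at 500 nM. NDC80 passed as lower at 5 nM with the 2 groups alone (adjusted p = 0.024) and without replicate 2 of 0.5 nM (0.032). The kinetochore motor CENPE gave -0.039 and CENPF 0.13, with adjusted p-values of 0.77 and 0.47.

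No spindle gene passed at any dose. KIF11, the Eg5 motor that separates spindle poles, gave -0.048, the microtubule depolymerase KIF2C -0.061, DLGAP5 -0.080 and HMMR 0.049 at 500 nM, and their adjusted p-values ran from 0.18 to 0.73. In the midzone and cytokinesis group ECT2 was the only gene of 5 to pass in the main test. KIF23 and RACGAP1, the centralspindlin pair to which ECT2 binds, gave 0.036 (-0.087 to 0.16) and 0.014 (-0.075 to 0.10). The motor KIF20A gave -0.037 and the furrow scaffold ANLN 0.059. ANLN lay above every DMSO library at 500 nM, from 4916, 5026 and 5128.5 to 5185, 5319.9 and 5189.6, with an adjusted p of 0.42.

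TOP2A had the highest level of the group before division by length. Its normalized counts were 9114, 9234 and 9538 in DMSO, 9458, 9107 and 9484 at 0.5 nM, 9247, 9586 and 9459.6 at 5 nM, 9025, 7978 and 8838 at 50 nM, and 9403, 9083 and 8975 at 500 nM. The 50 nM group alone lay wholly below the DMSO range, with a log2 fold change of -0.11 (-0.21 to -0.017, adjusted p = 0.19), and at 500 nM the value was -0.022. MKI67, the proliferation marker Ki-67, held 5886, 6238 and 6288 in DMSO, 7295, 4293 and 7645 at 0.5 nM, 7250.05, 7619.9 and 7848 at 5 nM, 6458, 5178 and 6606 at 50 nM, and 8599, 6549.7 and 7275 at 500 nM. The 5 and 500 nM libraries lay above every DMSO library. The log2 fold change was 0.30 at 5 nM (-0.017 to 0.62, adjusted p = 0.42) and 0.28 at 500 nM (-0.044 to 0.60, adjusted p = 0.25). Its spread within groups, 0.244 on the log2 scale, was at percentile 98.5 among the 1000 genes nearest in level. Without replicate 2 of 0.5 nM it passed as higher at 5 nM (adjusted p = 0.037) and at 500 nM (adjusted p = 0.017). MKI67 also passed as higher with the 2 groups alone, at 5 nM (adjusted p = 0.00012) and at 500 nM (adjusted p = 0.011).

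Without replicate 2 of 0.5 nM still 0 members passed at 0.5 nM, against 1.14% of all genes. At an unadjusted p of 0.05, CDK1 and ECT2 were then lower there and MKI67 higher (log2 fold change 0.28, adjusted p = 0.16, against 0.018 with the library), where 6.9% and 5.78% of all genes were. With the library the lower genes were DLGAP5 and ECT2. All 31 intervals at 0.5 nM still lay within 0.5 of zero. At the other doses the calls among the members changed without that library. At 5 nM CDK1, ECT2 and NDC80 were lower and MKI67 higher, against 3.13% of all genes lower and 1.46% higher. At 50 nM TTK, CENPA, CCNA2 and KIF20A were lower, against 5.43%, and at 500 nM CDC25C, ECT2, TTK, CCNA2 and CDK1 were lower and MKI67 higher, against 12.2% lower and 10.6% higher. At 50 nM 2 members were lower without replicate 3 of 0.5 nM, against 4.07% of all genes, and 3 without replicate 1 of 50 nM, against 2.63%.

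Counts, out of the 31 tested members, of those whose libraries do not overlap those of DMSO were as follows. At 500 nM 8 members lay wholly below DMSO (CDK1, CCNA2, CDC25C, PLK1, TTK, CENPA, DLGAP5 and ECT2) and 3 wholly above (AURKA, ANLN and MKI67), against 19.6% and 18.9% of all tested genes. At 50 nM 8 lay below and 0 above, against 13.2% and 11.6%. At 5 nM 8 lay below and 2 above, against 12.7% and 10.5%, and at 0.5 nM 6 below and 0 above, against 10.7% and 7.43%. Without replicate 2 of 0.5 nM, which leaves 2 libraries there, 9 lay below and 2 above, against 16.4% and 14.8%. ECT2 and TTK were in the lower set at all 4 doses.

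**Figure D5:**
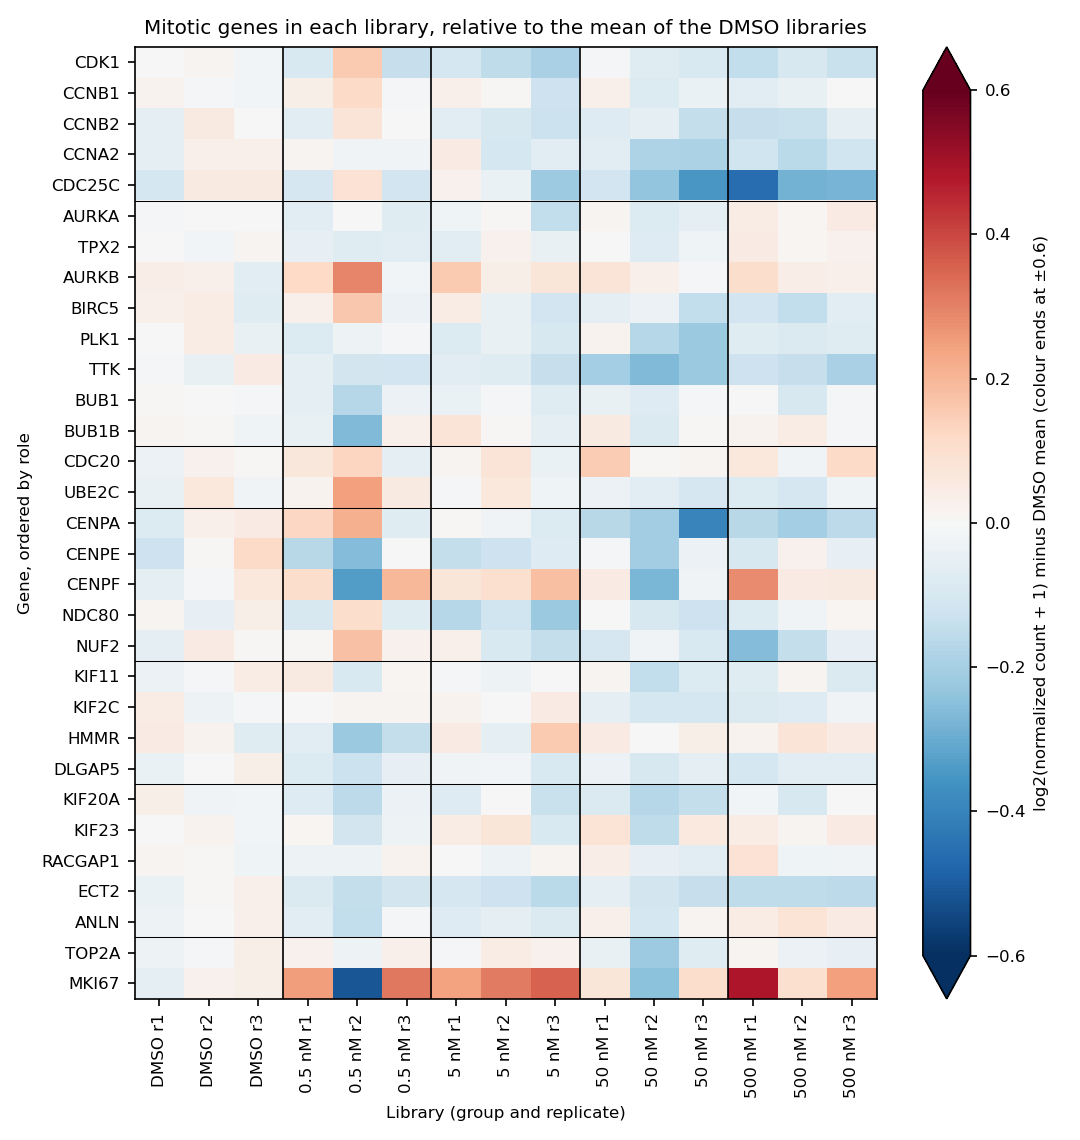
Level of each of the 31 tested mitotic genes (rows, by role) in each of the 15 libraries (columns) on the log2(normalized count + 1) scale, minus the mean of the DMSO libraries (colour). CDC25C and TTK are blue at 50 and 500 nM, and replicate 2 of 0.5 nM stands out with MKI67 and CENPF in blue and AURKB and UBE2C in red.

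At 50 nM most of the fold changes were small and below zero, and 1 of them passed the test. Of the 31 genes 28 had a negative log2 fold change (90.3%), against 50.8% of all tested genes, and at 500 nM 20 did (64.5%), against 49.4%. The mean level over the members, relative to DMSO on the log2 scale, was -0.0735 ± 0.0526 (SD, n = 3) at 50 nM and -0.0398 ± 0.0123 at 500 nM. By library it was -0.0155, -0.118 and -0.0869 at 50 nM and -0.0351, -0.0537 and -0.0305 at 500 nM, beside -0.019, 0.0113 and 0.00767 in DMSO. Replicate 1 of 50 nM lay within the DMSO range. It was the highest library of its group for 26 of the 31 genes, and for 33.2% of all genes. Replicate 2 of 50 nM was the lowest for 17 of the 31 genes, and for 35.6% of all genes. In replicate 2 the members took 0.633% of the reads, the smallest share of the 15 libraries. MKI67 held 5178 normalized counts there, against 6458 and 6606 in its partners, and CENPF 3366, against 4210 and 4005. The mitotic genes are regulated together, so the members are not independent, and no test was made of the mean.

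Steps between neighbouring doses gave no call among the members in limma, edgeR or DESeq2. From 0.5 to 5 nM 0 passed, against 0.118% of all genes (0.0885% lower and 0.0295% higher). From 5 to 50 nM 0 passed, against 5.01% (2.39% lower and 2.62% higher), and from 50 to 500 nM 0, against 2.28% (1.80% lower and 0.479% higher). At an unadjusted p of 0.05 the first step gave 4 of 31 members lower and 1 higher, against 4.14% and 3.82% of all genes. The next gave 6 lower and 0 higher, against 8.66% and 8.99%, and the last 0 and 0, against 7.48% and 5.60%. Without replicate 2 of 0.5 nM the first step gave 0 calls, and 0 lower and 0 higher at an unadjusted p of 0.05, against 2.99% and 2.91%. Without it MKI67 (-0.32, adjusted p = 0.015) and TOP2A (-0.13, adjusted p = 0.05 after rounding, under the threshold) were lower from 5 to 50 nM, against 4.22% of all genes, and MKI67 was higher from 50 to 500 nM (0.30, adjusted p = 0.04), against 1.68%. With the 2 groups alone MKI67 was also lower from 5 to 50 nM (adjusted p = 0.0094), against 3.26%. Over all genes 17.6% passed a linear trend over the ordered groups, from DMSO to 500 nM (9.33% lower and 8.23% higher). Of the 31 members 6 passed, all lower. They were CDC25C at -0.087 log2 units per dose step (adjusted p = 0.0025), CENPA at -0.070 (0.02), TTK at -0.044 (0.013), NUF2 at -0.044 (0.044), CCNA2 at -0.041 (0.013) and ECT2 at -0.029 (0.045). The trends of CDC25C, CENPA, TTK and CCNA2 passed in all 25 alternatives that give one. That of ECT2 was lost in 13 of them, with adjusted p-values up to 0.14, among them the replicate block, no filter, equal totals and the removal of any DMSO or 500 nM library, and that of NUF2 in 11, with values up to 0.17. The trend is not independent of the comparisons with DMSO, since it uses the same libraries.

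Of the genes that control this programme, 23 were listed and 22 tested, and 3 fell and 0 rose at 500 nM, against 10.1% and 7.69% of all genes. Of the 22 fold changes 8 were below zero, against 49.4% of all genes, with a median of 0.024. CDKN1A, which encodes the CDK inhibitor p21, changed by more than any member. Its normalized counts were 1633, 1580.2 and 1668 in DMSO, 1586, 1766 and 1738 at 0.5 nM, 1714.5, 1642 and 1741 at 5 nM, 1136, 1220.3 and 1107 at 50 nM, and 1067, 1078 and 1049 at 500 nM. The groups split between 5 and 50 nM with no overlap. The log2 fold change was -0.50 at 50 nM (adjusted p = 2.1e-06) and -0.61 at 500 nM (-0.72 to -0.51, adjusted p = 5.8e-08). E2F1, a transcription factor of S phase entry, gave -0.18 (adjusted p = 0.043) at 500 nM. That call was lost without the filter and without any one of several libraries, with an adjusted p of up to 0.17 without replicate 3 of 500 nM. FOXM1 (0.053, -0.048 to 0.15) and MYBL2 (-0.0055, -0.086 to 0.075), the activators of G2 and M transcription, did not pass at any dose. These and the other lists were written from general knowledge with earlier results of these data known, and their members are not independent of one another.

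Among 18 tested genes of mitotic entry control 2 fell and 1 rose at 500 nM, near the 10.1% and 7.69% of all genes. CDC25A, the phosphatase for CDK2 and CDK1, rose where its relative CDC25C fell. Its normalized counts were 721, 743 and 727 in DMSO, 740, 702 and 732 at 0.5 nM, 789.8, 787 and 732 at 5 nM, 906, 778 and 879 at 50 nM, and 920.3, 942 and 869.9 at 500 nM, so that the 50 and 500 nM libraries lay above DMSO. The log2 fold change was 0.22 at 50 nM (adjusted p = 0.026) and 0.32 at 500 nM (0.19 to 0.44, adjusted p = 0.00069). CDC25B, the remaining phosphatase of the family, fell by 0.17 (adjusted p = 0.0053) and WEE1, the kinase that CDC25 enzymes oppose, by 0.20 (adjusted p = 0.028). The WEE1 call was lost without DMSO replicate 2 or 3 or without 500 nM replicate 2 or 3, and when no filter was used.

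The lists nearest to the members in function held few calls at 500 nM, where 10.1% of all genes were lower and 7.69% higher. Of 25 tested genes of the APC/C and the spindle checkpoint 0 passed at 500 nM in limma, edgeR or DESeq2, with 3 lower and 3 higher at an unadjusted p of 0.05, against 15.5% and 13.8% of all genes. Without replicate 2 of 0.5 nM 3 passed as higher, ANAPC1, ANAPC7 and ESPL1, against 10.6% of all genes. Of 36 other kinetochore and centromere genes 0 fell and 2 rose, ZWINT (0.17, adjusted p = 0.024) and CENPP (0.35, adjusted p = 0.038). Of 33 other spindle and cytokinesis genes 0 fell and 1 rose, FAM83D (0.21, adjusted p = 0.0065), which brings a kinase to the spindle, and PSRC1 was lower at 50 nM (-0.21, adjusted p = 0.03). Of 20 condensin and cohesin genes 2 fell and 0 rose, the cohesin subunit RAD21 (-0.17, adjusted p = 0.003) and the acetyltransferase ESCO1 (-0.28, adjusted p = 0.034). The calls of ZWINT, CENPP and ESCO1 were lost when no filter was used and without 1 of several libraries, and that of CENPP also in DESeq2 (adjusted p = 0.094).

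The S phase genes, which serve DNA replication, gave 0 lower and 3 higher of 40 at 500 nM, against 10.1% and 7.69% of all genes, and 10 of the 40 fold changes were below zero. The median log2 fold change was 0.041, beside -0.037 for the mitotic genes. MCM10, which helps fire replication origins, held 1013, 1006 and 980.05 normalized counts in DMSO and 1268, 1193 and 1275 at 500 nM, a log2 fold change of 0.32 (0.18 to 0.45, adjusted p = 0.0015). POLE, the catalytic subunit of the leading-strand polymerase, gave 0.30 (adjusted p = 0.003), and CHAF1A, a chaperone that deposits histones on new DNA, 0.16 (adjusted p = 0.037). The CHAF1A call was lost without any 1 of 5 libraries, DMSO replicates 1 and 2 and each 500 nM replicate, and when no filter was used. The difference between the lists was not tested.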

How the data were processed

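The deposited signal values are gene counts that the authors divided by DESeq2 size factors, after poly-A selection, paired-end sequencing, alignment with HISAT2 to hg38 and counting with HTSeq. Strandedness, tool versions and the GENCODE release are not given in the sources used here. They are called normalized counts here. The smallest step between values in a library gave the worth of 1 read and so whole reads (all values within 0.001 of one), and 1 line without a gene was left out. The 59608 genes were filtered to the 13561 with a mean of at least 10. limma 3.58.1 (R 4.3.3) was run on log2(normalized count + 1) with a mean-variance trend, the 5 groups in 1 fit (10 residual degrees of freedom). Contrasts were each dose minus DMSO and each dose minus the dose below it, a further fit gave the trend over dose rank, and p-values were adjusted by Benjamini-Hochberg over all tested genes with a threshold of 0.05. A gene was called where its adjusted p was under that threshold. A fold change on this scale understates that of low genes. The test was checked on simulated data.

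The members and lists were chosen with earlier results of these data known. Full values were given for members called at any dose, for the 3 of highest level and for CDK1, CCNB1, PLK1 and AURKA. From each list up to 3 called genes with the smallest p at 500 nM were named, with FOXM1, MYBL2 and CDKN1A in any case. One gene that this rule names is not reported here. The 50 nM call of PSRC1 and the 3 APC/C genes called without 1 library were named after their values were seen. The 26 alternatives were edgeR 4.0.16 and DESeq2 1.42.0 on the recovered reads, pseudocounts of 0.5 and 5, no filter or a mean of at least 50, TMM scaling, equal totals, a replicate block, 2 groups alone, a threshold of 0.1 and leaving out each library. Exon overlap and transcript length came from GENCODE release 44, promoters from RefSeq.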

Additional observations from a re-analysis of the deposited data

How the results depend on the processing

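Of 589 values on the members recomputed under 26 alternatives, 566 stayed within 1.5 times the main count or, for medians, within the spread between replicates. The median change from 0.5 to 5 nM turned sign without replicate 3 of 5 nM, from -0.00594 to 0.00143. Members lower at 5 nM numbered 1 with DESeq2 (2.29% of all genes), 3 with the 2 groups alone (3.92%) and 1 at an adjusted p under 0.1 (2.74%), against 0, and 1 was higher with the 2 groups alone (2.32%). At 50 nM 2 were lower with a mean of at least 50 (4.78%) and with the 2 groups alone (4.82%), and 3 at an adjusted p under 0.1 (5.12%), against 1. At 500 nM the 2 groups alone gave 6 lower (12.8%) and 1 higher (11.4%), against 3 and 0, and 1 lower between 5 and 50 nM (3.26%), against 0. Leaving out 1 library gave 0 to 3 members lower and 0 to 1 higher at 5 nM, 1 to 4 lower at 50 nM, 2 to 5 lower and 0 to 1 higher at 500 nM, 0 to 2 lower from 5 to 50 nM and 0 to 1 higher from 50 to 500 nM, against 4.22% and 1.68% of all genes where the counts were highest. The median change from 5 to 50 nM then ran from -0.0512 to -0.0106 and that from 50 to 500 nM from 0.000281 to 0.0574. The upper ends of the counts came without replicate 2 of 0.5 nM. The median of -0.0512 came without replicate 3 of 5 nM, with -0.0489 without replicate 1 of 50 nM, and that of 0.0574 without replicate 1 of 50 nM. Both opposite ends came without replicate 2 of 50 nM. The cause was not tested. Of 2002 values on single named genes 1932 stayed on their side of the threshold, 51 lost a call, 19 gained one and 0 with a call turned sign. Over all genes the count called at 500 nM was 1795 to 3294 against 2409, at 50 nM 560 to 1276 against 814, at 5 nM 113 to 846 against 295, at 0.5 nM 19 to 391 against 159, from 0.5 to 5 nM 4 to 32 against 16, from 5 to 50 nM 424 to 1129 against 679 and from 50 to 500 nM 139 to 630 against 309.

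The replicate numbers gave no sign of pairing the samples. Deviations from the group means correlated at -0.0855 to 0.0961 between libraries of the same number and at -0.13 to 0.123 between the rest. The replicate block gave 2 members lower at 50 nM, TTK and CENPA, against 1 (3.86% of all genes), and left the calls at the other doses in place. Under it the trend of ECT2 lost its call and that of BIRC5 gained one (adjusted p = 0.049). The 95% intervals reached a median of 0.11 to either side on the log2 scale, and for a member whose interval includes zero a change within it was not detectable with 3 dishes a group.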
